A study of Rattus rattus with 18 samples.

Results

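The miRNAs described here are rno-miR-320-3p, rno-miR-320-5p and rno-miR-484 (written below without the species prefix), chosen by name because their precursors are made without the nuclear enzyme Drosha. They are 3 of the 761 miRNA probes on the array, and each was found under its name in the spot data. Levels were measured in brain tissue of 9 male Sprague Dawley rats on 18 single-colour microarrays, 1 array per rat for the core and another for peri. The 3 groups of 3 rats each were sham-operated controls, rats with transient middle cerebral artery occlusion (tMCAO, a filament model of ischaemic stroke followed by reperfusion), and rats labelled as remote limb postconditioning (PostC). The labels do not say whether PostC rats also had an occlusion, nor at which time after reperfusion the tissue of these arrays was taken. The labels place core in the temporo-parietal cortex and peri in the striatum, whereas the text of the study places them the other way round, so the regions are called core and peri only. Tissue of whole regions was measured, so fewer cells of a type and less RNA per cell cannot be told apart.

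Most miRNA hairpins are cut out of a long primary transcript by Drosha and its partner Dgcr8 before Dicer trims them. The hairpins of miR-320 and miR-484 are instead transcribed directly as short capped RNAs, which leave the nucleus by Exportin-1 and are then cut by Dicer. In the miR-320 hairpin the 5p arm carries the cap and is loaded poorly into Argonaute, so the 3p arm is the guide and the 5p arm the passenger strand. Human miR-320a has been described as a regulator of aquaporins, the water channels involved in brain oedema.

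The probed mature sequences of the members, as deposited with the spots, are shown first because the arms of miR-320 behaved differently in the comparisons that follow; capitals mark the seed, bases 2 to 8 from the 5′ end.
miR-320-3p: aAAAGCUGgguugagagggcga
miR-320-5p: gCCUUCUCuucccgguucuucc
miR-484: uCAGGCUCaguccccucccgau
Each has 22 bases. The miR-320 arms are opposite in composition: the 3p arm is 22.7% pyrimidine (percentile 1.6 of all probes) and the 5p arm 86.4% (percentile 99.2), against a median of 52.0%. The GC contents of miR-320-3p, miR-320-5p and miR-484 are 54.5%, 59.1% and 63.6%, and the median of the tested probes is 50%. No other probe shares the seed of either miR-320 arm. The seed of miR-484 is shared by 2 other probes, shown to let the shared bases be seen.
miR-344a-5p: uCAGGCUCcuggcuagauu
miR-6334: cCAGGCUCucccagcugccggc
Aligned without gaps, no other probe on the array shared more than 13 of 22 bases with a member.

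Array quality differed between arrays. The median miRNA spot lay between 49.1 and 261 intensity units, and between 188 and 605 probes per array exceeded the detection limit, set for each array at 3 scaled median absolute deviations over the median of its empty spots. Probes above this limit on at least 3 arrays were tested, 532 of 761, and all 3 members passed. Arrays of the same group correlated with r between 0.831 (a pair of PostC core arrays) and 0.985 (a pair of sham core arrays). Of the brain and neuron miRNAs miR-124-3p, miR-9a-5p, miR-128-3p and miR-138-5p, all 4 were detected on all 18 arrays, and the liver miRNA miR-122-5p was detected on 1 array.

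The guide arm miR-320-3p was detected on all 18 arrays, the passenger arm miR-320-5p on 13 and miR-484 on 7. MiR-320-5p was above the limit on 6 of 6 sham arrays, on 5 of 6 PostC arrays and on 2 of 6 tMCAO arrays. Detection of all probes also differed between the groups: the median array had 412.5 of 761 probes above its limit in sham, 288 in PostC and 231.5 in tMCAO rats, with a median limit of 108, 182 and 177 units. MiR-484 was dim in every group, with 3 of 6 sham, 2 of 6 tMCAO and 2 of 6 PostC arrays above the limit, and on none of the 3 tMCAO peri arrays. When the dimmest 25% of miRNA spots set the limit instead, the counts were 18 for each miR-320 arm and 15 for miR-484. The 4 spots of a probe agreed closely, with a median SD of 0.11 (miR-320-3p), 0.13 (miR-320-5p) and 0.11 (miR-484) on the log2 scale, whereas the SD between rats within a group was 0.53, 0.71 and 0.42 in the same order.

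Normalized log2 intensities of miR-320-3p in core were 10.39, 9.75 and 10.13 in the sham rats, 11.07, 11.73 and 11.05 in the tMCAO rats, and 12.02, 10.32 and 10.18 in the PostC rats. Every tMCAO core array was brighter than every sham core array, and PostC rat 1 stood above the other PostC rats. In peri the values were 9.95, 10.04 and 10.40 in sham, 11.00, 10.77 and 10.18 in tMCAO, and 10.18, 10.53 and 10.86 in PostC rats. Here the groups overlapped, since tMCAO rat 3 lay below sham rat 3.

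For the passenger arm miR-320-5p the order was different. Core values were 8.67, 9.61 and 9.52 in sham, 7.29, 7.18 and 6.66 in tMCAO, and 9.40, 10.15 and 10.05 in PostC rats. Each tMCAO core array was dimmer than every sham and every PostC core array. In core, 41.0% of all tested probes had no overlap between tMCAO and sham, and 18.6% had none between PostC and tMCAO. In peri the values were 8.84, 10.35 and 9.72 in sham, 7.91, 7.59 and 8.95 in tMCAO, and 10.12, 10.04 and 8.03 in PostC rats. The peri groups overlapped: tMCAO rat 3 was above sham rat 1, and PostC rat 3 was in the tMCAO range.
Before any correction, the median spot of miR-320-5p in core lay between 435 and 808 units in sham and between 75.1 and 97.0 units in tMCAO rats, and was 223, 2138 and 2393 units in PostC rats. On this scale, too, each tMCAO core array was dimmer than every sham and PostC core array, but PostC rat 1 lay below all 3 sham rats. In the normalized table made by the authors the core means were 516 ± 168 units in sham, 35.9 ± 11.8 in tMCAO and 772 ± 339 in PostC rats (SD, n = 3 rats each), and those of miR-320-3p were 1040 ± 261, 2443 ± 598 and 1850 ± 1080.

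MiR-484 stayed between 6.38 and 7.71 on all 18 arrays. In core it was 7.27, 6.59 and 6.94 in sham, 7.71, 7.59 and 6.52 in tMCAO, and 7.20, 6.69 and 6.44 in PostC rats. In peri it was 7.16, 6.82 and 7.22 in sham, 7.25, 7.09 and 6.38 in tMCAO, and 6.77, 7.18 and 6.63 in PostC rats. All groups overlapped in both regions.

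**Figure D1:**
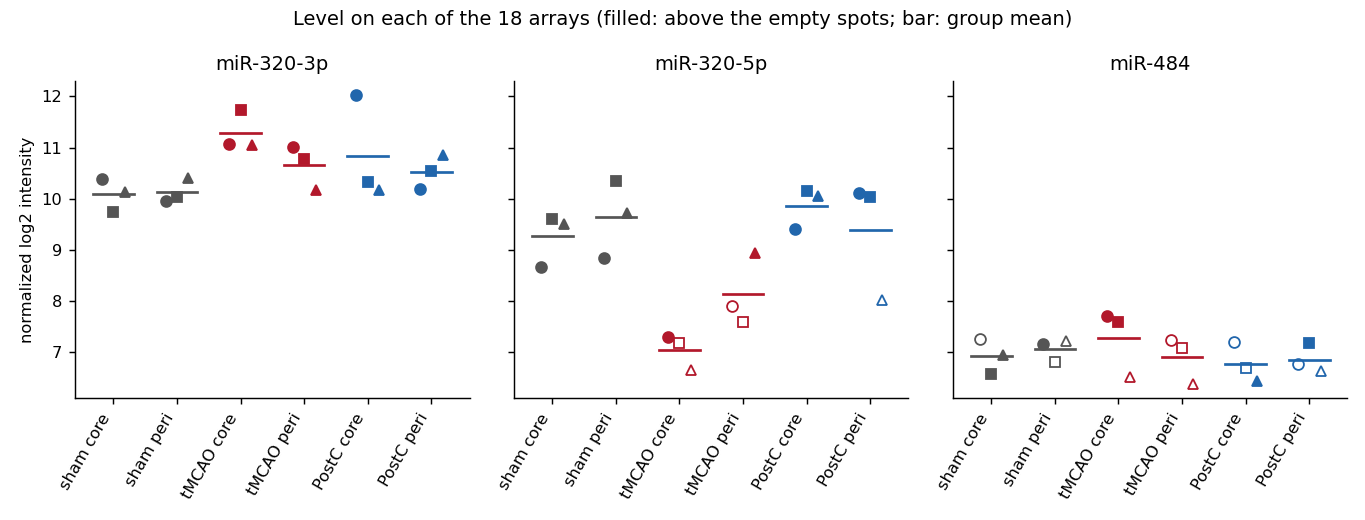
Normalized log2 intensity (vertical axis) of each member on the 18 arrays, by group (horizontal axis); circles, squares and triangles are rats 1, 2 and 3, filled symbols are above the empty-spot limit, and bars are group means. The 3 tMCAO core points of miR-320-5p lie between 6.66 and 7.29, under every sham and PostC core point; probes differ in brightness for the same amount of RNA, so heights are compared within a panel only.

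By group mean, miR-320-3p ran from tMCAO core (11.28 ± 0.39) through PostC core, tMCAO peri, PostC peri and sham peri to sham core (10.09 ± 0.32), and neighbours in this order overlapped throughout. MiR-320-5p ran from PostC core (9.87 ± 0.41) through sham peri, PostC peri, sham core and tMCAO peri to tMCAO core (7.05 ± 0.34; SD, n = 3 each). Of its neighbours only the last pair, tMCAO peri and tMCAO core, did not overlap. MiR-484 ran from tMCAO core (7.27 ± 0.65) to PostC core (6.78 ± 0.39), and each pair of neighbours overlapped.

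The first comparison asked what occlusion and reperfusion changed. With the mean of core and peri taken as 1 value per rat, miR-320-5p was lower in tMCAO than in sham rats by 1.85 on the log2 scale (SE 0.36), from 9.45 ± 0.63 to 7.60 ± 0.21 (SD, n = 3), with an adjusted p of 0.00951 (limma, Benjamini-Hochberg over the 532 probes). MiR-320-5p met the filter of 3 arrays through the sham and PostC arrays, where it was higher. Its calls in comparisons with tMCAO rats, and those of the arm difference below, are therefore given as a description. In tMCAO rats 1 of 3 core and 1 of 3 peri arrays were above the limit, and the size of the difference varied with the processing: it was −2.90 with background from the dimmest spots, −2.96 in the deposited normalized intensities and −3.48 with plain subtraction of the empty spots. In this comparison 11.8% of all tested probes passed the threshold, 4.51% higher and 7.33% lower, so 1 of 3 members called stands against that background. MiR-320-3p differed by +0.86 (SE 0.27), from 10.11 ± 0.20 to 10.97 ± 0.33, with an adjusted p of 0.0640, which misses the threshold of 0.05. The 3 tMCAO rats lay above the 3 sham rats for miR-320-3p and below them for miR-320-5p, and 41.0% of all tested probes had groups without overlap. MiR-484 differed by +0.09 (95% interval −0.49 to 0.67, adjusted p = 0.827), and by +1.72 with plain subtraction. The miR-320-5p call was lost without tMCAO rat 2 (−1.75, adjusted p = 0.0599) and held when any of the other sham or tMCAO rats was left out. With median scaling in place of loess, miR-320-3p differed by only +0.23 (adjusted p = 0.585) and miR-320-5p by −2.50 (adjusted p = 0.00351), while the median of all tested probes moved from −0.02 to −0.21; relative to that median the differences were +0.44 and −2.29.

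In core, where 1 of 3 tMCAO arrays was above the limit and no exact fold is given, miR-320-5p fell by 2.22 (SE 0.42), with an adjusted p of 0.0293, where 3.38% of all tested probes were called; the difference was −3.50 with background from the dimmest spots, −3.31 in the deposited normalized intensities and −4.29 with plain subtraction, where it was not called (adjusted p = 0.0708). Leaving out any 1 of the 6 rats left the change between −2.52 and −2.03 and raised its adjusted p to between 0.0516 and 0.119. MiR-320-3p differed by +1.20 (SE 0.50, 95% interval 0.07 to 2.32, adjusted p = 0.205). Both arms had no overlap between groups in core, as had 41.0% of all probes. MiR-484 differed by +0.34 (adjusted p = 0.563), by +1.33 with plain subtraction, and by −0.06 and −0.11 with the GC and base composition corrections. With 1 rat left out its difference was 0.12 to 0.71.
In peri no member was called, against 0.564% of all probes. There miR-320-5p differed by −1.49 (SE 0.59, adjusted p = 0.237; −2.30 with background from the dimmest spots, −2.61 in the deposited normalized intensities, −2.68 with plain subtraction), miR-320-3p by +0.52 (SE 0.36, adjusted p = 0.507; −0.61 with median scaling, where the median of all probes was −0.42) and miR-484 by −0.16 (SE 0.23, adjusted p = 0.762).

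PostC rats were compared with sham rats to ask what that condition changed relative to controls. No member was called, in rat means (0.188% of all probes called), in core (0%) or in peri (0%). In rat means miR-320-5p differed by +0.18 (95% interval −0.61 to 0.98), miR-320-3p by +0.57 (−0.03 to 1.17, adjusted p = 0.352; +0.25 with median scaling and +0.36 without PostC rat 1) and miR-484 by −0.18 (−0.76 to 0.39). The rat means of miR-320-3p did not overlap between PostC and sham, as was so for 18.2% of all probes.

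PostC was also set against tMCAO; both this comparison and that of tMCAO with sham use the same 3 tMCAO rats, so their opposite signs are not independent. In rat means miR-320-5p was higher in PostC than in tMCAO by 2.03 (SE 0.36), with an adjusted p of 0.00916 and no overlap (as for 26.1% of all probes), where 5.64% of all probes were called (5.08% higher in PostC). The difference was 3.03 with background from the dimmest spots, 2.98 in the deposited normalized intensities and 4.10 with plain subtraction. Without tMCAO rat 2 the difference was 1.93 with an adjusted p of 0.0611. In core, with the same 1 of 3 tMCAO arrays above the limit, it was higher by 2.82 (SE 0.42), with an adjusted p of 0.00845 (2.26% of all probes called), and passed the threshold without any 1 of the 6 rats. Here it was 4.16 with background from the dimmest spots, 3.83 in the deposited normalized intensities and 5.94 with plain subtraction. In peri the difference was +1.25 (SE 0.59, adjusted p = 0.725; 0% of all probes called; 1.22 to 2.26 over the alternatives that kept all rats), and without PostC rat 3 it was +1.93 with an adjusted p of 0.0291. MiR-320-3p differed by −0.29, −0.45 and −0.13 in rat means, core and peri (+0.015 in rat means and +0.42 in peri with median scaling), and miR-484 by −0.27, −0.50 and −0.05 (−1.97, −1.64 and −2.30 with plain subtraction), with no call. With 1 rat left out, miR-320-3p differed by −0.50 to −0.14 in rat means and by −1.04 to −0.12 in core.

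**Figure D2:**
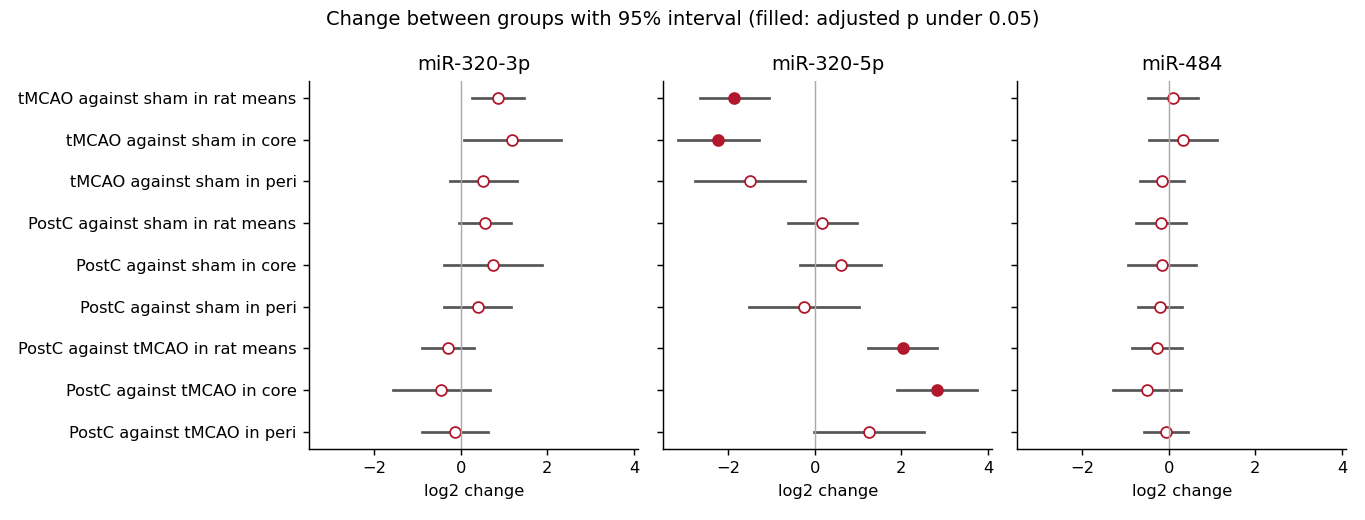
Log2 change of each member (horizontal axis) in 9 comparisons (vertical axis) with its 95% interval from limma; filled points have an adjusted p under 0.05. The filled points all belong to miR-320-5p: −1.85 and −2.22 in tMCAO against sham, and 2.03 and 2.82 in PostC against tMCAO, in rat means and core.

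Core was compared with peri within each rat. In tMCAO rats miR-320-5p was lower in core by 1.10 on average (SE 0.51, adjusted p = 0.462), with −0.62, −0.41 and −2.29 in rats 1, 2 and 3. Without tMCAO rat 3 the difference was −0.51, and over the alternatives that kept all rats it ran from −2.19 to −0.67. In the same rats miR-320-3p differed by +0.63 (SE 0.45, adjusted p = 0.699) and miR-484 by +0.36 (SE 0.22, adjusted p = 0.640). With median scaling the miR-320-3p difference was +1.32 (adjusted p = 0.152). For each of the 3 members the 3 tMCAO rats were on 1 side, as were 43.6% of all probes, and 0.940% were called. In sham rats the core minus peri differences of miR-320-3p, miR-320-5p and miR-484 were −0.04, −0.37 and −0.13, and in PostC rats +0.31, +0.47 and −0.08, none of them called (0% of all probes in both). The PostC rats differed among themselves: miR-320-3p was higher in core in rat 1 and in peri in the other two, and miR-320-5p was higher in core in rat 3, where it was 10.05 against 8.03, and in rat 2 by a small margin. The change in core did not differ detectably from the change in peri for any member, in tMCAO (0% of all probes called) or PostC (0%); for miR-320-5p the difference of the changes after tMCAO was −0.73 (95% interval −2.35 to 0.89, adjusted p = 0.824; −1.61 with plain subtraction, −0.04 with median scaling, and −0.14 without tMCAO rat 3).

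The arms of 1 hairpin come from the same precursor, so the 3p minus 5p log2 difference within an array shows whether they changed unequally; its zero has no meaning, because the probes differ in brightness. In core the difference for miR-320 was 1.71, 0.14 and 0.62 in sham, 3.78, 4.55 and 4.39 in tMCAO, and 2.62, 0.17 and 0.13 in PostC rats. The tMCAO core arrays were thus apart from both other groups. In core, 38.5% of all tested arm pairs had no overlap between tMCAO and sham, and 21.8% had none between PostC and tMCAO. In peri it was 1.11, −0.32 and 0.68 in sham, 3.09, 3.18 and 1.23 in tMCAO, and 0.07, 0.49 and 2.82 in PostC rats. PostC rat 1 in core and PostC rat 3 in peri were higher than the other PostC arrays.

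**Figure D3:**
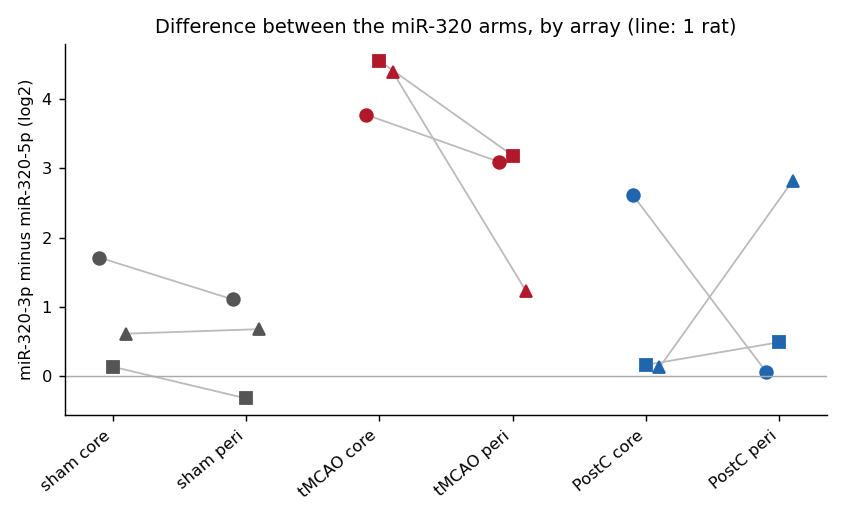
MiR-320-3p minus miR-320-5p log2 intensity (vertical axis) on each array by group (horizontal axis); symbols are rats 1 (circle), 2 (square) and 3 (triangle), and a line joins core and peri of 1 rat. The tMCAO core arrays lie between 3.78 and 4.55 and the sham arrays between −0.32 and 1.71; 1 PostC core and 1 PostC peri array lie at 2.62 and 2.82.

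Between tMCAO and sham rats the arm difference changed by +2.71 in rat means (SE 0.45, 95% interval 1.72 to 3.70), with an adjusted p of 0.00400 over the 156 miRNA names with both arms tested, of which 15.4% were called. The 5p arm was above the limit on 2 of 6 tMCAO arrays, so the size of this change is not well measured. That arm met the filter through sham and PostC arrays, so the call is given as a description. Over the 14 alternatives that kept all rats the change ran from 2.71 to 4.58, the highest with plain subtraction and outside the interval above. The call held without any 1 of the 6 rats, with values between 2.34 and 3.09. In core the change was +3.42 (SE 0.70, adjusted p = 0.0264; 7.69% of pairs called), and the call was lost without tMCAO rat 2 (adjusted p = 0.110), tMCAO rat 3 (0.0566) or sham rat 2 (0.0993). In peri it was +2.01 (SE 0.77, adjusted p = 0.288; 0% called), and ran from 1.87 to 3.36 over the alternatives that kept all rats. Opposite signs of the 2 arms were common, in 46.8% of pairs in rat means, and 9 pairs (5.77%) had opposite signs with neither arm overlapping between tMCAO and sham, miR-320 among them.

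Between PostC and sham rats the arm difference changed by +0.39 in rat means (95% interval −0.60 to 1.38, adjusted p = 0.728; 1.28% of pairs called), +0.15 in core (adjusted p = 0.889; 1.28%) and +0.64 in peri (adjusted p = 0.975; 0%). Leaving out 1 rat at a time moved the rat-mean value between 0.02 and 0.77. Between PostC and tMCAO it changed by −2.32 in rat means (SE 0.45, adjusted p = 0.0243; 7.05% called) and −3.27 in core (SE 0.70, adjusted p = 0.0398; 2.56% called). Over the alternatives that kept all rats the rat-mean change ran from −4.47 to −2.32. The core call held in 8 of 15 alternatives that kept all rats, with values that reached −6.45 under plain subtraction of the empty spots. The rat-mean call was lost without tMCAO rat 1 (adjusted p = 0.0681), tMCAO rat 2 (0.0775), PostC rat 1 (0.0751) or PostC rat 2 (0.0717). The core call held without PostC rat 1 and was lost without any of the other 5 rats, with an adjusted p between 0.0960 and 0.161. In peri the change was −1.37 (adjusted p = 0.741; 0% called; −2.50 to −1.32 over the alternatives that kept all rats), and −2.22 without PostC rat 3 (adjusted p = 0.0468).

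**Figure D4:**
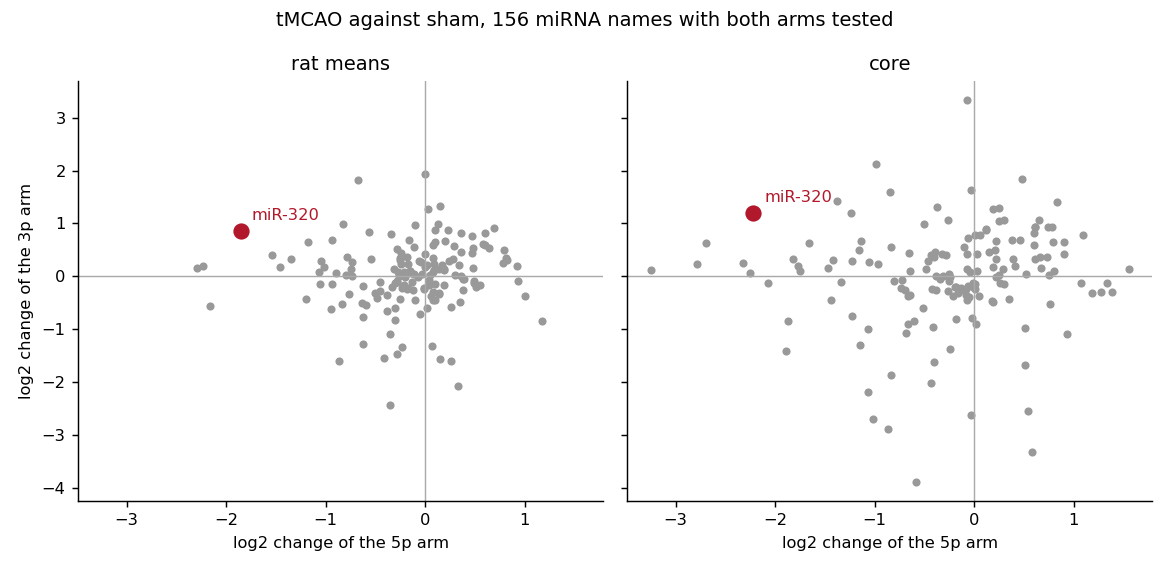
Log2 change in tMCAO against sham of the 5p arm (horizontal axis) and 3p arm (vertical axis) of the 156 miRNA names with both arms tested, in rat means (left) and core (right). MiR-320 (red) lies in the upper left at −1.85 and +0.86 in rat means and at −2.22 and +1.20 in core.

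MiR-484 and miR-320-3p were also set against each other by change, although miR-484 was above the limit on 7 of 18 arrays (on 1 of 3 sham peri arrays and 0 of 3 tMCAO peri arrays). An exact two-sided permutation test of 3 rats against 3 cannot give a p under 0.1, so the values are a description. MiR-484 minus miR-320-3p differed between tMCAO and sham rats by −0.77 in rat means, −0.86 in core and −0.68 in peri, and between PostC and sham rats by −0.76, −0.91 and −0.60. Between PostC and tMCAO it differed by 0.01, −0.05 and 0.07, but by −1.60, −1.13 and −2.06 with plain subtraction of the empty spots. The tMCAO against sham values turn sign with the processing: plain subtraction gave +0.63 in rat means, −0.18 in core and +1.43 in peri, and median scaling gave −0.07, −0.66 and +0.52. For PostC against sham, median scaling gave −0.43 in rat means and −0.0032 in peri, and background from the dimmest spots gave −1.40 in peri.

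Other miRNAs that bypass Drosha are mirtrons, excised by splicing of short introns. All 4 mirtron probes on the array were tested. In rat means of tMCAO against sham, 1 of 4 was called, miR-1224, higher by 1.08 (SE 0.31, adjusted p = 0.0468), where 11.8% of all probes were called; the median of the list was +0.59 against −0.02 for all probes. In core 0 of 4 were called by limma (2 at an unadjusted p under 0.05, and 21.8% of all probes), with a median of +0.73 against −0.05. In core miR-1224 was 9.17, 11.05 and 9.26 in sham, 11.99, 12.77 and 12.45 in tMCAO, and 10.42, 9.64 and 12.29 in PostC rats, a difference of +2.58 in tMCAO (SE 0.70, adjusted p = 0.0922). In peri it was 8.83, 9.04 and 9.21 in sham and 8.60, 8.47 and 8.75 in tMCAO rats (−0.42, adjusted p = 0.639). In tMCAO rats core exceeded peri by 3.80 for miR-1224 (adjusted p = 0.0788). MiR-702-5p and miR-877 were close to the empty spots, detected on 8 and 7 arrays, and differed by +0.10 and +0.29 in the rat means. MiR-702-3p was detected on 6 arrays and differed by +0.88 in the rat means (adjusted p = 0.163). In core it was 6.85, 6.54 and 6.84 in sham and 8.83, 8.81 and 6.40 in tMCAO rats, so that tMCAO rats 1 and 2 stood above every sham rat and tMCAO rat 3 below them (+1.27, SE 0.56, adjusted p = 0.223). In peri 0 of 4 mirtrons were called by limma (1 at an unadjusted p under 0.05, and 15.2% of all probes), with a median of +0.22 against −0.01 for all probes. No mirtron was called by limma between PostC and sham, where 0 had an unadjusted p under 0.05 in rat means, core or peri (14.1%, 16.9% and 2.63% of all probes), or between PostC and tMCAO. There 0 in rat means and 0 in peri had an unadjusted p under 0.05 (18.4% and 5.83% of all probes; 5.64% and 0% called), and 1 in core, miR-1224, by −1.62 (13.3% of all probes; 2.26% called).

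Of the probes that share the miR-484 seed, miR-6334 was detected on 10 arrays and differed by +0.18 between tMCAO and sham in rat means (SE 0.27, adjusted p = 0.664). MiR-344a-5p was above the limit on 1 array and was not tested.

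Over the 18 arrays, described without a test since arrays share rats, groups and normalization, the 2 arms of miR-320 ran against each other (Pearson r = −0.58, Spearman rho = −0.62). The probes most like miR-320-3p were miR-485-5p (r = 0.97), miR-433-3p (0.94) and miR-134-5p (0.94), and those most like miR-320-5p were miR-93-3p (0.94), miR-191b (0.92) and miR-568 (0.89). For miR-484 they were miR-1249 (0.93), miR-3072 (0.90) and miR-296-5p (0.84), each detected on 7 arrays as miR-484 was. Within groups the r of miR-320-3p with miR-485-5p was 0.96. That of miR-320-5p was 0.80 with miR-93-3p, 0.775 with miR-191b and 0.592 with miR-568.

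Some markers of blood cells were higher in the tMCAO group, and others were not. Of 5 leukocyte miRNAs, 4 were tested and 2, miR-155-5p and miR-150-5p, were called higher in tMCAO than in sham in rat means, where 11.8% of all probes were called, 4.51% higher and 7.33% lower. MiR-155-5p was detected on 3 of 18 arrays, 2 of tMCAO core, 1 of PostC core and 0 of sham, so it passed the filter only through the groups where it was high and its call is given as a description. The other two differed by +0.75 (miR-223-3p, adjusted p = 0.259) and −0.28 (miR-142-5p, adjusted p = 0.319). The summed level of the 5 in core ranged from 2684 to 3476 units in sham, from 6353 to 11373 in tMCAO and from 4893 to 7698 in PostC rats. Probes differ in brightness, so the sum is weighted by probe. MiR-150-5p by itself had a group mean of 11.31 in sham core and 12.87 in tMCAO core on the log2 scale. In peri the sum ranged from 2682 to 2991 units in sham and from 2800 to 4182 in tMCAO rats. The defining leukocyte marker miR-142-3p was detected on 1 of 18 arrays, that of sham rat 2 in core. Of 3 red blood cell miRNAs, 2 were tested and 1, miR-486, was called higher, while miR-451-5p differed by +0.14 (adjusted p = 0.809) in rat means and −0.01 in core. Their summed level overlapped in core, from 2421 to 4272 units in sham and from 2967 to 4179 in tMCAO rats, and miR-144-3p was detected on 0 arrays. In PostC core the sum was 1511 to 1792 units, below every sham and tMCAO core array. Between PostC and tMCAO in core, where miR-320-5p was called higher, miR-451-5p differed by −1.20 (adjusted p = 0.127) and miR-486 by −0.91 (adjusted p = 0.546). In tMCAO against sham in rat means, 2 of the 4 neuron and brain miRNAs had a positive and 2 a negative difference. Of these 1, miR-9a-5p, was called lower, by −1.20 (adjusted p = 0.0350), whereas miR-128-3p differed by +0.44 (adjusted p = 0.0668). Change in tMCAO rats also went with GC content over the 532 probes (Spearman rho = 0.34 in rat means and 0.39 in core, a description across probes), and little with pyrimidine content (0.09 and 0.08). The part of blood cells in the changes of miR-320 was not tested. After linear trends with GC and pyrimidine content were removed from each array, an alternative chosen after seeing the data, the tMCAO against sham changes in rat means were −2.12 for miR-320-5p (adjusted p = 0.00726), +0.84 for miR-320-3p (0.0709), −0.20 for miR-484 (0.533) and +2.96 for the arm difference (0.00494).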

How the data were processed

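MiRNA levels were measured on 18 µParaflo microarrays (1 Cy5 channel, 4 spots per probe). The authors deposited, per array, median spot intensities with no background subtraction, and a table of normalized intensities, background-subtracted and adjusted by locally weighted regression. All 18 columns of that table matched a sample (0 left out).

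From the spots, background was corrected with normexp (offset 50) on all spots, log2 values were normalized by cyclic loess with control spots at weight 0, and the spots of a probe were averaged. Tests covered the probes detected on 3 or more arrays and used limma 3.58.1 in R 4.3.3 (variance trend, Benjamini-Hochberg, threshold 0.05). Rats were replicates, the 3 groups shared 1 estimate of spread, and region contrasts used within-rat differences. The fits were also run on simulated data with independent normal noise on each array. Those data had no effect shared by arrays of the same rat, no floor of dim spots and no normalization step. Array intensities give no counting error; the number of arrays limits precision. Loess assumes that rises and falls balance, so changes are relative to the other miRNAs.

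Members and the 5 lists were chosen with earlier results of these data known. The named miRNAs were the 3 members in every comparison, the mirtrons, probes sharing a member's seed, and for each member the 3 most correlated probes; marker lists were given as counts, and single markers named there were chosen after their values were seen. Alternatives covered background, normalization, filters, tests, the replicate block and leaving out each rat. No genome or hairpin sequence was used here.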

Additional observations from a re-analysis of the deposited data

How the results depend on the processing

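Over 56 results (14 comparisons of each member and of the arm difference) and their alternatives, 1037 of 1142 values kept their direction and their side of the threshold, 38 lost a call, 8 gained one and 59 changed sign. The sign changes were all in differences that were not called. The miR-320-5p calls in rat means (tMCAO against sham and PostC against tMCAO) and the arm-difference calls there each held in 13 of 14 alternatives that kept all rats. The exception was the methods' t-test, which called none of these, nor those in core (miR-320-5p: tMCAO against sham −1.85, adjusted p = 0.0855, core −2.22, 0.0720; PostC against tMCAO 2.03, 0.118, core 2.82, 0.152; arm difference: 2.71, 0.0984, core 3.42, 0.111; PostC against tMCAO −2.32, 0.114, core −3.27, 0.328).

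Plain subtraction of the empty spots gave −4.29 for miR-320-5p (adjusted p = 0.0708) and 5.80 for the arm difference (0.0875) in tMCAO against sham in core. The arm difference in PostC against tMCAO in core (−3.27) was not called with no filter (0.0834), the dim-spot limit (0.0604) or only the groups compared (0.0784), nor with median scaling (−3.33, 0.0601) or the base composition correction (−3.38, 0.0690), which was chosen after seeing the data. MiR-320-3p in tMCAO against sham in rat means was called with background from the dimmest spots (1.01, 0.0321), quantile normalization (1.06, 0.0203), probes detected on all arrays (0.86, 0.0478) and no variance trend (0.86, 0.0432). Median scaling called miR-320-5p in tMCAO against sham in peri (−2.48, 0.0318). The cause of these shifts was not tested. Restricting the test to probes detected on all arrays gave no value for miR-320-5p, miR-484 or the arm difference, and the fit of both regions together gave none for rat means.

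With the replicate block, the miR-320-5p change in tMCAO against sham in core (−2.22, adjusted p = 0.0810) and the arm difference there (3.42, 0.0513) and in PostC against tMCAO in core (−3.27, 0.0623) were not called; it changed no other call. The numbers name 9 different rats. In rat means, same-numbered rats of different groups correlated in their deviations between −0.51 and 0.32, and differently numbered rats between −0.49 and 0.50. Whether same-numbered rats shared a batch was not tested, and these ranges cannot decide it.

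Signs turned in these uncalled differences. For miR-320-3p, median scaling gave −0.61 (tMCAO against sham) and −0.18 (PostC against sham) in peri, and 0.42 in peri and 0.015 in rat means (PostC against tMCAO), and GC correction gave 0.0050 for core against peri in sham. For miR-320-5p, median scaling gave −0.16 in PostC against sham in rat means. For the arm difference in PostC against sham in core, plain subtraction gave −0.65. For miR-484, plain subtraction gave 2.11 (tMCAO against sham in peri), 0.30, −0.48 and 0.18 (core against peri in sham, tMCAO and PostC), and −0.78 and −0.12 (change in core against change in peri, tMCAO and PostC). Background from the dimmest spots gave −0.43 (tMCAO against sham, rat means), 0.25 (PostC against tMCAO, peri) and 0.49 (core against peri, PostC). Quantile normalization gave 0.041 (tMCAO against sham, peri), 0.0089 (PostC against sham, core) and 0.19 (core against peri, PostC), and the deposited normalized intensities gave 0.33, 0.083 and 0.20 for the same differences. GC correction gave −0.15 (rat means) and −0.056 (core) in tMCAO against sham, 0.034 in PostC against tMCAO in peri and −0.24 for the change in core against peri in PostC. The base composition correction gave −0.20, −0.11, 0.090 and −0.28 for these 4, and 0.052 for core against peri in sham.

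Leaving out 1 rat at a time gave these ranges in log2. For miR-320-5p they were −2.20 to −1.59 in rat means and −2.52 to −2.03 in core (tMCAO against sham), 1.80 to 2.33 in rat means and 0.89 to 1.93 in peri (PostC against tMCAO), −0.17 to 0.48 in rat means and −0.64 to 0.44 in peri (PostC against sham), and −0.30 to 1.06 for core against peri in PostC. For miR-320-3p they were 0.72 to 1.04 in rat means (tMCAO against sham; called without tMCAO rat 3, adjusted p = 0.0398), −0.36 to 0.049 in peri (PostC against tMCAO), −0.28 to 0.082 and −0.45 to 0.81 for core against peri in sham and PostC, and −0.40 to 0.85 for the PostC change in core against peri. For the arm difference they were 3.07 to 3.86 in core (tMCAO against sham), −2.60 to −1.96 in rat means, −4.09 to −2.85 in core and −2.22 to −0.84 in peri (PostC against tMCAO), −0.67 to 0.59 in core and −0.21 to 1.17 in peri (PostC against sham), −1.51 to 1.11 for core against peri in PostC and −1.84 to 0.78 for the PostC change in core against peri. For miR-484 they were −0.10 to 0.41 in rat means and −0.33 to 0.11 in peri (tMCAO against sham), −0.37 to 0.012 in core (PostC against sham), −0.31 to 0.12 in peri (PostC against tMCAO), −0.34 to 0.12 for core against peri in PostC and −0.21 to 0.25 for the PostC change in core against peri.

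The number of probes called over all alternatives was 8 to 130 in the rat means of tMCAO against sham (63 as reported), 0 to 46 in its core (18) and 0 to 128 in its peri arrays (3); for PostC against tMCAO it was 3 to 39 in rat means (30), 0 to 30 in core (12) and 0 to 59 in peri (0). MiR-320-5p on tMCAO arrays and miR-484 throughout lay near the empty spots, which limits how well their changes were measured.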
